A study of Gossypium hirsutum with 42 samples.

Results

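Gh_Sca005165G01 (locus MSTRG.85515) is 1 of 100881 genes measured in the root and leaf of 7 upland cotton (Gossypium hirsutum) genotypes. It was chosen by name from the expression table, because its root level differed widely between the inbreds A and B. Its description in the deposited annotation is cold, circadian rhythm and RNA binding 2. The annotation gives it 3 transcripts (2 of them assembled from the reads) and places it in the spliceosome pathway under orthology number K12885. Its name carries Sca, the mark of a scaffold that was not placed on a chromosome of the TM-1 genome, and its position and sequence were not analysed here.

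Proteins of this description carry an RNA recognition motif and a glycine-rich tail. In Arabidopsis thaliana the transcript of the gene of this name (CCR2, also called GRP7) rises and falls with the time of day, increases in the cold, and is held in check by its own protein, which binds the transcript and changes its splicing. The protein acts downstream of the core clock genes and on the splicing of other transcripts.

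The hybrids were H (SJ48-Z98-15, high yield heterosis), M (SJ48-851-2, medium) and L (SJ48-DT-8, low). All 3 had the inbred A (SJ48) as seed parent, and their pollen parents were the inbreds B (Z98-15) for H, C (851-2) for M and D (DT-8) for L. Root and leaf came from seedlings grown in nutrient solution and harvested once the first true leaves had opened fully, with 3 replicates per genotype and tissue and 42 libraries in all. No treatment was applied, and the time of day of harvest is not given in the sources used here. Values are FPKM, the fragments mapped to a gene scaled to its transcript length and to the size of the library, and the number of reads behind a value is unknown.

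Marker genes were used to check the labels. Of 60 photosynthesis and leaf genes, 56 were higher in leaf, with summed FPKM of 170 to 541 in root and 20061 to 37122 in leaf. Of 41 root genes, 36 were higher in root, but their summed FPKM overlapped, at 61.3 to 269 in root and 4.2 to 105 in leaf. The 17 root genes present in B alone among the inbreds had a median level in H of 49.0% of that in B, against 1.30% in M and 0.19% in L. Relative depth could be estimated only roughly, since few low values fell into steps (9.18% of 1928 pairs shared the commonest ratio), and the estimates ran from 0.807 to 0.979 in root hybrids and from 0.853 to 1.16 in root inbreds, and the total of FPKM per library from 391460 to 462950.

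In the root, Gh_Sca005165G01 was high in A, near absent in B, C and D, and in between in the hybrids. The hybrid libraries had 9.27, 7.96 and 9.89 FPKM in H, 10.2, 13.0 and 10.3 in M, and 10.9, 12 and 11.5 in L. The A libraries had 26.7, 28.3 and 27.9 FPKM, whereas the 9 libraries of B, C and D ranged from 0.183 to 0.364 with a median of 0.287. The A libraries did not overlap those of any other genotype, and the hybrid libraries did not overlap those of B, C or D. Mean levels were 9.04 ± 0.987 FPKM in H, 11.2 ± 1.56 in M, 11.5 ± 0.569 in L, 27.6 ± 0.828 in A, 0.220 ± 0.0328 in B, 0.313 ± 0.0435 in C and 0.308 ± 0.0401 in D (SD, n = 3 each). A was 125-fold above B, 88.1-fold above C and 89.5-fold above D. These parental values chose the gene and are given with no test.

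In the leaf A was again highest, the hybrids in between and B, C and D near absent, and every mean was lower than in root. The order among the hybrids was not the same, as H had the lowest mean in root and L in leaf. The hybrid libraries had 3.75, 2.75 and 3.62 FPKM in H, 3.83, 3.21 and 3.73 in M, and 3.60, 2.74 and 2.59 in L. The A libraries had 4.75, 5.36 and 4.76 FPKM, and those of B, C and D ranged from 0, in 1 library of D, to 0.288 with a median of 0.201. The 3 hybrids overlapped each other, the 3 paternal inbreds overlapped each other, and A stood above all of them. Mean levels were 3.37 ± 0.543 FPKM in H, 3.59 ± 0.332 in M, 2.98 ± 0.544 in L, 4.96 ± 0.350 in A, 0.150 ± 0.0933 in B, 0.179 ± 0.122 in C and 0.166 ± 0.147 in D (SD, n = 3 each). The leaf of A was 33.0-fold above B, 27.7-fold above C and 29.8-fold above D.

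**Figure D1:**
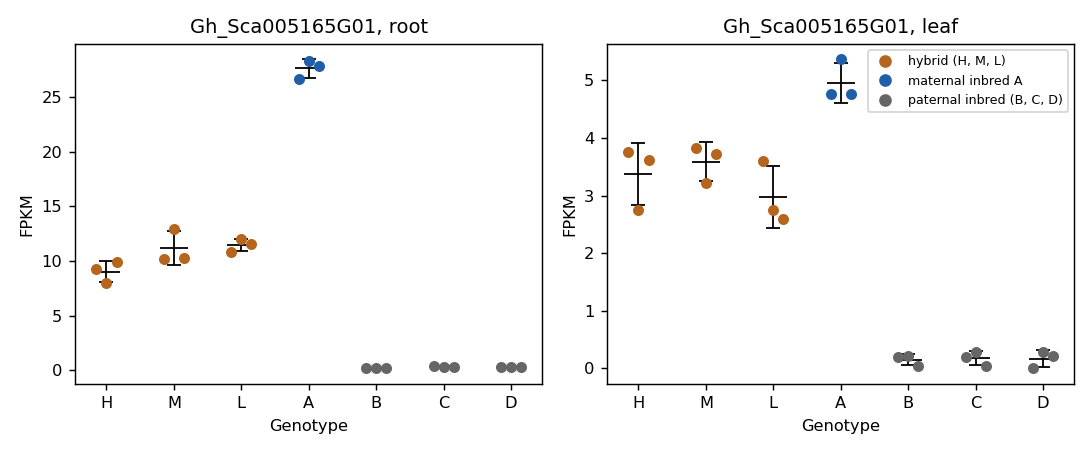
FPKM of Gh_Sca005165G01 in each root library (left) and leaf library (right) by genotype, on separate linear axes; points are libraries, horizontal marks are means and bars are SD (n = 3). In root the A libraries lie between 26.7 and 28.3, the hybrids between 7.96 and 13.0, and B, C and D at or under 0.364.

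The levels of the gene were set against those of all other genes. Every A library lay above every B, C and D library in 2.22% of 59282 root genes and 3.45% of 54835 leaf genes that passed the filter on low values (at least 1 FPKM in 3 libraries). The gene had been chosen for such a pattern, so its own place among them is a description. By mean level, it ranked 2229 of the 86310 genes above 0 in the root of A, above 97.4% of them, and 14751 of 85090 in the leaf of A. In the roots of the hybrids it ranked 9831 in H, 7626 in M and 7288 in L. In the paternal inbreds its rank was between 65398 and 69764 in both tissues.

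Only 22 genes had a mean of at least 5 FPKM in the root of A and under 1 in B, C and D, and Gh_Sca005165G01 was the second highest of them. Above it was Gh_D11G3313, of the lipid-transfer and seed storage albumin family, at 8.27 FPKM in H, 27.2 in M and 9.97 in L, against 35.3 in A. After it came the unnamed locus MSTRG.60429 with 12.6 FPKM in A, Gh_A03G1510 (EXORDIUM like 5, a family known for roles in cell expansion) with 12.3, and Gh_Sca098319G01 (31-kDa RNA binding protein) with 10.8. The 3 root libraries of A spread from 26.7 to 28.3 FPKM for Gh_Sca005165G01, from 3.66 to 17.6 for MSTRG.60429 and from 0 to 21.6 for Gh_A03G1510. Thus the level of Gh_Sca005165G01 was the steadiest of these 3 across replicates of A, which are libraries that chose the gene. Some others of the 22 also varied little, such as MSTRG.83678 (5.54 to 6.13 FPKM) and Gh_D11G3313 (29.5 to 40.6), and several had an A library at 0.

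In the leaf 5 genes met the same limits, and Gh_Sca005165G01, at 4.96 FPKM in A, fell just outside. The 5 were Gh_A05G1931 (Phosphate-responsive 1 family protein) at 44.6 FPKM in A, Gh_D04G1332 (glutathione S-transferase TAU 18) at 12.3, Gh_D04G1556 (mitochondrial transcription termination factor family) at 6.20 and 2 unnamed loci. Among the named ones, Gh_A05G1931 and Gh_D04G1556 each had an A library at 0, so their means rested on part of the A libraries. A stricter limit, set after the values were seen, asked for at least 2 FPKM in every A library of both tissues and under 1 in every B, C and D library. It left 4 genes, of which Gh_Sca005165G01 was the only named one.

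The hybrids carry 1 set of chromosomes from A and 1 from the paternal inbred, and their level can be set against the mean of both parents. In root, H stood at 0.666, 0.572 and 0.711 times the mean of its parents (13.9 FPKM), M at 0.731, 0.928 and 0.739 times, and L at 0.778, 0.859 and 0.825 times. In leaf, H stood at 1.47, 1.08 and 1.42 times the mean of its parents (2.55 FPKM), M at 1.49, 1.25 and 1.45 times, and L at 1.40, 1.07 and 1.01 times. All 9 hybrid root libraries were below the parental mean and all 9 hybrid leaf libraries were above it. The 9 ratios of a tissue use the same A libraries, which make up nearly all of each parental mean, so they are not independent. The share of all genes with such a pattern was not computed. The libraries were not rescaled for these ratios, and FPKM totals in leaf were 406030 to 462950 in hybrids and 397000 to 402410 in A. Over all leaf genes the median log2 difference from A was 0.10 in H, 0.03 in M and 0.09 in L. The lowest leaf ratios of L are so near 1 that their side of the parental mean depends on this scaling. The mean ratios were 0.650 ± 0.0710 in H, 0.799 ± 0.112 in M and 0.821 ± 0.0407 in L in root, and 1.32 ± 0.213 in H, 1.40 ± 0.129 in M and 1.16 ± 0.212 in L in leaf (SD, n = 3 hybrid libraries). These SDs leave out the spread of the parental libraries. The parental libraries chose the gene, so no test is given. On the log2(FPKM + 1) scale the root difference takes the opposite sign, at 0.76 in H, 0.98 in M and 1.03 in L, since the mean of 2 logarithms lies far below the logarithm of the mean when 1 parent is near 0. In bulk tissue, a change in the share of cells that express the gene and a change in the level per cell cannot be told apart.

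**Figure D2:**
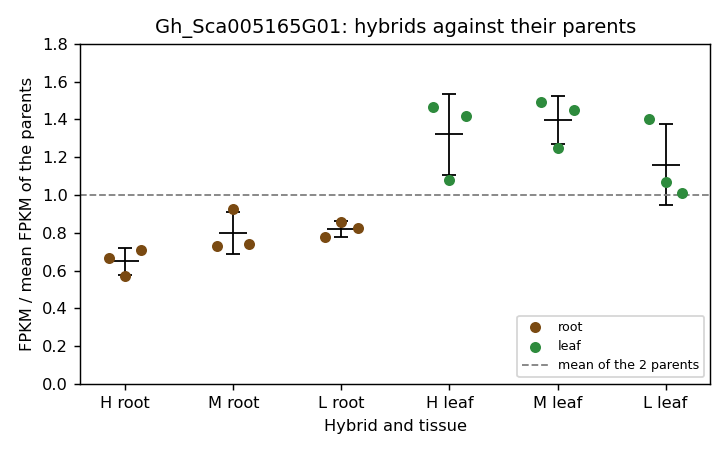
FPKM of Gh_Sca005165G01 in each hybrid library divided by the mean FPKM of its 2 parents (dashed line at 1), in root and leaf; points are libraries, horizontal marks are means and bars are SD (n = 3). The root points lie between 0.572 and 0.928 and the leaf points between 1.01 and 1.49.

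As a share of the level in A, the root of H reached 32.7 ± 3.58%, that of M 40.4 ± 5.64% and that of L 41.5 ± 2.06%. The leaf of H reached 68.1 ± 11%, that of M 72.4 ± 6.69% and that of L 60.0 ± 11% (SD, n = 3 hybrid libraries). The hybrids stood 41.1-fold (H), 35.6-fold (M) and 37.2-fold (L) above their paternal parents in root, and 22.4-fold, 20.1-fold and 17.9-fold in leaf.

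The 3 hybrids differ in yield heterosis, and their levels were compared with each other, a contrast that the choice of the gene did not use. None of the 6 hybrid pairs passed the test (limma on log2(FPKM + 1), adjusted p under 0.05 over all genes of the tissue and a log2 difference above 1 or below -1). In root every H library lay below every M and L library, with log2 differences of -0.27 from M (95% interval -0.46 to -0.09, adjusted p = 0.246, limma) and -0.32 from L (-0.50 to -0.13, adjusted p = 0.156, limma). The unadjusted p from limma were 0.00688 and 0.00252, and 0.349% and 0.341% of all root genes were called in these comparisons. The share of root genes with every H library below every M and L library was not computed. M and L overlapped, with a difference of -0.04 (-0.23 to 0.15, adjusted p = 0.980, limma; 0.251% of genes called). In leaf the differences were -0.07 for H minus M (-0.35 to 0.20), 0.14 for H minus L (-0.14 to 0.42) and 0.21 for M minus L (-0.06 to 0.49), with adjusted p of 0.836, 0.753 and 0.531 from limma and 1.12%, 0.595% and 0.64% of genes called. All 6 intervals exclude a difference of 1 on this scale.

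The gene was higher in root than in leaf in the 3 hybrids. All 3 had A as seed parent, and the gene was chosen for the root difference between A and B. These 3 tests are thus not independent of that choice or of each other. The log2 difference, root minus leaf, was 1.20 in H (adjusted p = 2.76e-11), 1.40 in M (7.18e-13) and 1.66 in L (1.18e-14), each with an SE of 0.108 from a limma fit of all 42 libraries. Each root library of a hybrid was above each leaf library, and the share of all genes with this order was not computed. The median of all genes was itself 0.20 higher in root in H, 0.26 in M and 0.19 in L, and with quantile normalization, which brought these medians to 0.07, 0.07 and 0.08, the gene differed by 1.05, 1.18 and 1.51. A difference between these tissues is common, as 25.6% of 69603 genes were called in H, 27% in M and 25.1% in L. In FPKM, root stood 2.68-fold above leaf in H, 3.11-fold in M and 3.85-fold in L. A, whose root level chose the gene, had 5.57-fold more in root, and B, C and D had 1.46, 1.75 and 1.85 times as much at levels under 0.4 FPKM in both tissues.

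Whether the difference between tissues was unequal among hybrids was tested by an interaction added after the values were seen. The root minus leaf difference was smaller in H than in L by a log2 value of -0.45 (95% interval -0.77 to -0.14, unadjusted p = 0.00582, adjusted p = 0.329, limma), which was not called (0.211% of genes were). H minus M was -0.20 (-0.51 to 0.11) and M minus L -0.25 (-0.57 to 0.06), with adjusted p of 0.673 and 0.604 from limma (0.519% and 0.351% of genes called).

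The table holds 2 other genes with the same description, Gh_D13G2550 and Gh_A12G0257, named for chromosomes D13 and A12. Reads that fit more than 1 of the 3 could have been divided among them in the authors' counting, and this was not tested. Neither showed the pattern of Gh_Sca005165G01. Together the 3 genes summed to 65.5 ± 19.9 FPKM in the root of A, against 62.8 ± 20.6 in B, 33.0 ± 7.10 in C and 118 ± 42.9 in D (SD, n = 3). The sum in A thus lay within the range of the paternal inbreds, although Gh_Sca005165G01 made up 44.6% of it (31.7 to 56.7% over libraries), against 0.395% in B, 0.972% in C and 0.283% in D. In the leaf of A it made up 31.2% of a sum of 16.6 ± 5.20 FPKM. In the hybrids its share was 12.3% in H, 16.4% in M and 10.3% in L in root, and 3.10%, 2.90% and 3.79% in leaf.

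**Figure D3:**
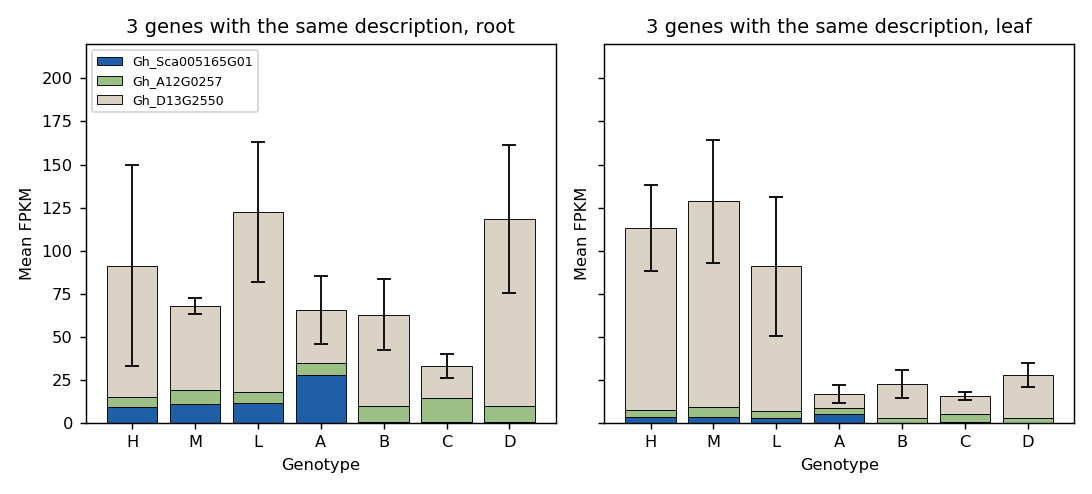
Mean FPKM of Gh_Sca005165G01 and the 2 genes of the same description, stacked by genotype in root (left) and leaf (right); bars on top are the SD of the sum (n = 3). Gh_Sca005165G01 (lowest segment) is 27.6 FPKM of 65.5 in the root of A, and the hybrid leaves reach 90.8 to 129 FPKM, mostly Gh_D13G2550, against 15.6 to 27.9 in the 4 inbreds.

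Gh_D13G2550 was the most abundant of the 3, and in leaf it rose in all hybrids over both parents. Its leaf libraries had 128, 110 and 79.1 FPKM in H, 126, 81.8 and 152 in M, and 57.8, 63.5 and 131 in L. The inbred leaves had 5.07, 13.5 and 5.93 FPKM in A, 10.6, 20.4 and 27.3 in B, 12.5, 8.45 and 10.7 in C, and 21.3, 32.1 and 21.2 in D. Every hybrid leaf library lay above every inbred one, A included, whereas for Gh_Sca005165G01 A lay above the hybrids. The share of leaf genes with every hybrid library above every inbred one was not computed. The log2 differences were 3.62 for H minus A, 2.45 for H minus B, 3.79 for M minus A, 3.35 for M minus C, 3.23 for L minus A and 1.65 for L minus D (adjusted p = 2.21e-06, 0.000244, 1.06e-06, 7.2e-06, 8.28e-06 and 0.00669, limma). The shares of all leaf genes called were 5.14%, 3.5%, 6.32%, 4.49%, 4.89% and 2.97%. The 3 comparisons with A use the same A libraries.

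Between the inbred leaves, Gh_D13G2550 was lower in A than in D (log2 difference -1.58, adjusted p = 0.0129, limma; 2.24% of genes called), and the differences from B (-1.18, adjusted p = 0.0995) and C (-0.43, adjusted p = 0.580) were not called. The call against D was lost without A replicate 1 (adjusted p = 0.0684), A replicate 3 (0.0596) or D replicate 2 (0.0635), and B was called without A replicate 2 (0.0363) or B replicate 1 (0.0447), all from limma. In root its replicates were far apart, with 143, 34.5 and 52.5 FPKM in H, 46.5, 46.6 and 53.3 in M, and 125, 132 and 56.1 in L. The inbred roots had 25.2, 13.4 and 54.6 FPKM in A, 22.1, 66.3 and 70.2 in B, 21.6, 12.8 and 21.6 in C, and 133, 134 and 58.3 in D. Of 9 root comparisons only L minus A (1.84, adjusted p = 0.0315, limma; 3.63% of genes called) and A minus D (-1.89, adjusted p = 0.0336, limma; 2.57% called) passed. The shares of all root genes called in the other hybrid comparisons were 4.24% for H minus A, 2.62% for H minus B, 3.55% for M minus A, 2.61% for M minus C and 4.68% for L minus D. The 2 calls were lost without the filter on low values (adjusted p = 0.0532 for L minus A and 0.0555 for A minus D, limma). L minus A also lost its call without A replicate 1 (adjusted p = 0.0679), A replicate 2 (0.155), L replicate 1 (0.0978) or L replicate 2 (0.108), and A minus D without A replicate 1 (0.0811), A replicate 2 (0.150), D replicate 1 (0.106) or D replicate 2 (0.102), all from limma.

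Gh_A12G0257 was called in none of 18 comparisons between genotypes. In root it had 5.73 ± 0.184 FPKM in H, 8.07 ± 1.52 in M, 6.54 ± 1.42 in L, 6.86 ± 1.38 in A, 9.68 ± 6.45 in B, 14 ± 2.14 in C and 9.64 ± 0.935 in D (SD, n = 3). In leaf the means ran from 2.83 ± 0.113 in B to 5.38 ± 0.0982 in M. Against A it was 0.50 higher on the log2 scale in the leaf of M (adjusted p = 0.00667, limma) and against B 0.38 higher in the leaf of H (adjusted p = 0.0399), both under the limit of 1.

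Between tissues, the other 2 genes differed from Gh_Sca005165G01 as well. Gh_A12G0257 was called as higher in root than in leaf in B, C and D, by 1.29, 1.36 and 1.47 on the log2 scale (adjusted p = 1.79e-05, 8.83e-06 and 2.65e-06, limma; 25%, 24.6% and 25.5% of genes called), and in none of the hybrids. Gh_D13G2550 was higher in root in A, B and D, by 1.70, 1.32 and 2.01 (adjusted p = 0.00425, 0.0239 and 0.000875, limma; 25.1% of genes called in A). In M the difference ran the other way, at -1.24 (adjusted p = 0.0341, limma), opposite to that of Gh_Sca005165G01. Only the call in D held whichever library was left out. That in M was lost without any 1 of the 3 root libraries or of leaf replicates 1 and 3 (adjusted p = 0.0523 to 0.118), that in A without root replicate 3 (0.0586), and that in B without root replicate 2 (0.106), root replicate 3 (0.119) or leaf replicate 1 (0.145) or with quantile normalization (0.0600). That of Gh_A12G0257 in B fell to 0.84, under the limit of 1, without root replicate 1.

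**Figure D4:**
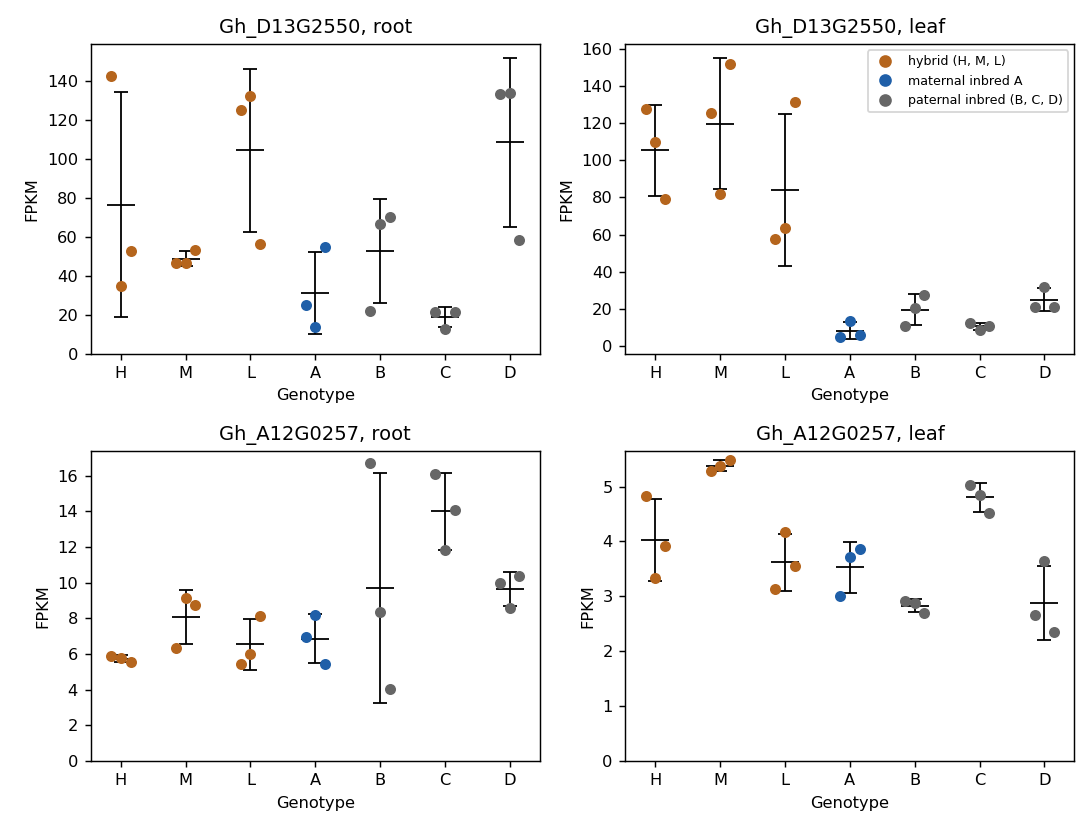
FPKM of Gh_D13G2550 (top) and Gh_A12G0257 (bottom) in each root (left) and leaf (right) library by genotype, on separate linear axes; points are libraries, horizontal marks are means and bars are SD (n = 3). In leaf, Gh_D13G2550 lies between 57.8 and 152 FPKM in the hybrids and between 5.07 and 32.1 in the inbreds.

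Orthology number K12885 covers 11 other genes in the table, a list added after the values were seen. They include both genes above, poly(A) binding protein genes and RNA recognition motif genes, and Gh_Sca098319G01 (31-kDa RNA binding protein). In root, A minus B called 1 of 11 as higher and 0 as lower, A minus C 1 and 0, and A minus D 1 and 1 (1.82%, 1.58% and 2.57% of all genes called). The member that was higher in A each time was Gh_Sca098319G01, also on an unplaced scaffold, with 18.1, 6.88 and 7.36 FPKM in the root of A and no library above 0.356 in the roots of B, C and D. Its root libraries had 0, 2.74 and 1.92 FPKM in H, 7.48, 0 and 0 in M, and 0 in all of L. In leaf it was listed at 0 in every inbred library, A included, and at 1.89 ± 1.64 FPKM in H, 1.34 ± 1.24 in M and 2.55 ± 0.306 in L (SD, n = 3). Its presence in A was thus confined to root among the inbreds, whereas Gh_Sca005165G01 was present in both tissues of A.

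The scaffold of Gh_Sca005165G01 carries a second gene in the table, Gh_Sca005165G02, of the alpha/beta-hydrolase family, chosen after its values were seen and given with no test. In leaf it ran the other way, with 0.898, 0.809 and 0.713 FPKM in H, 0.288, 0.230 and 0.284 in M, 0.508, 0.450 and 0.738 in L, and 0.184, 0.262 and 0.0490 in A. The paternal leaves had 1.46, 2.08 and 1.73 FPKM in B, 1.27, 0.499 and 1.69 in C, and 0.313, 1.35 and 0.615 in D. Every A library was below every B, C and D library, and the share of all genes with this order was not computed. On the log2(FPKM + 1) scale A differed by -1.24 from B, -0.85 from C and -0.56 from D, and only the difference from B was beyond the limit of 1. In root no library exceeded 0.132 FPKM.

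The 10 genes whose log2(FPKM + 1) followed that of Gh_Sca005165G01 most closely over the 42 libraries had Pearson correlations of 0.891 to 0.957, out of 68185 genes compared. The points share genotypes, tissues and plants, so the coefficients are descriptions. None of the 10 has a description and 6 have no gene name. The closest was the unnamed locus MSTRG.267 (r = 0.957), with 3.37 FPKM in the root of A, followed by Gh_A02G0104 (r = 0.935) with 3.85 FPKM. Gh_D03G0482 (r = 0.910), Gh_D12G2060 (r = 0.909) and Gh_A10G2073 (r = 0.893) were the other named ones. All 10 had every A library above every B, C and D library in both tissues, at levels of 1.04 to 8.41 FPKM in the root of A and 0.236 to 2.16 in its leaf, all under those of Gh_Sca005165G01. That order follows largely from the choice, since they were picked for likeness to a gene chosen as high in A. Of the genes that passed the filter, 2.22% in root and 3.45% in leaf had it.

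The share of the level in A that the hybrids reached was set beside that of Gh_Sca005165G01, as a description, since the 10 loci were picked on the same libraries, hybrids included. In the root of H the 10 loci had 29.1 to 76.8% of the level in A (median 56.0%), against 32.7% for Gh_Sca005165G01. In M they had 39.2 to 85.8% (median 60.7%), against 40.4%, and in L 40.2 to 91.5% (median 54.1%), against 41.5%. In each hybrid 9 of the 10 were above Gh_Sca005165G01 and 1 was below. In leaf the medians were 74.2% in H, 65.8% in M and 64.9% in L, and Gh_Sca005165G01, at 68.1%, 72.4% and 60.0%, stood in the middle of the list. The 4 genes of the stricter limit gave the same order in root, where Gh_Sca005165G01 had the lowest share of A in each hybrid. Among the 22 genes present in A alone in root it stood the other way, as their median share of A was 12.2% in H, 10.8% in M and 3.93% in L. Several of these 22 had an A library at 0, such as Gh_D10G0699 (0 to 27.8 FPKM) and Gh_Sca092607G01 (0 to 20.0). Their means in A rest on part of the A libraries, which limits what these medians show.

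**Figure D5:**
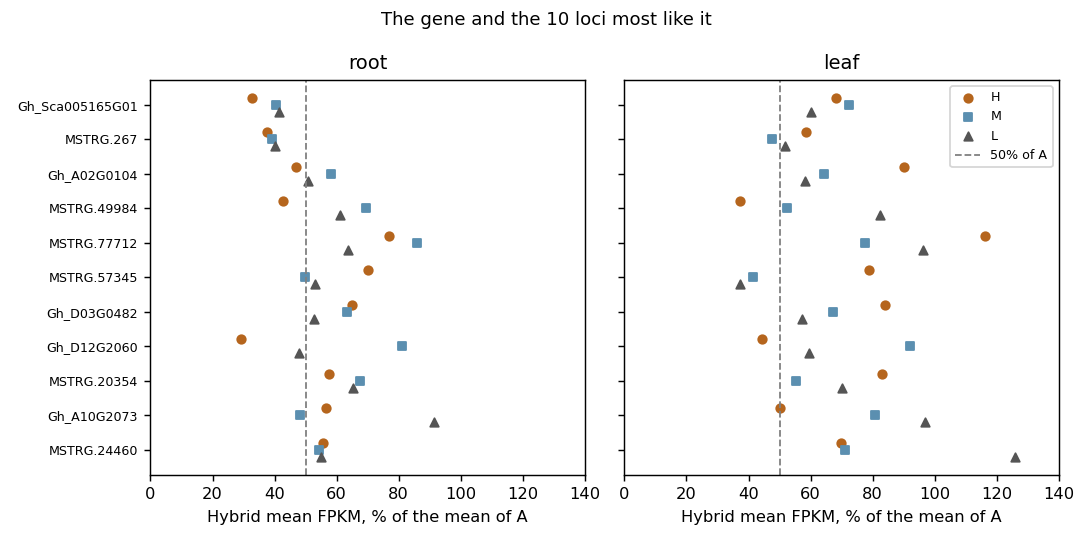
Mean level in H, M and L as a percentage of the mean level in A for Gh_Sca005165G01 (top row) and the 10 loci with the most similar pattern over 42 libraries, in root (left) and leaf (right); the dashed line marks 50% of A. In root Gh_Sca005165G01 lies at 32.7% in H, 40.4% in M and 41.5% in L, with 9 of the 10 loci to its right in each hybrid.

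The pathway named circadian rhythm of plants holds 505 genes of the table, and Gh_Sca005165G01 is not among them. In these genes the inbreds were compared, with all 3 comparisons sharing the A libraries. In root A had 9 pathway genes higher and 0 lower than B of 278 tested (3.24%, against 1.82% of all genes), 14 higher and 0 lower than C (5.04% against 1.58%), and 8 higher and 4 lower than D (4.32% against 2.57%). In leaf, of 300 tested, 2 were higher and 2 lower than B (1.33% against 1.28%), 5 and 2 than C (2.33% against 1.63%), and 8 and 12 than D (6.67% against 2.24%). The median log2 difference of the pathway was between -0.11 and 0.07 in all 6 comparisons, against -0.05 to 0.03 for all genes.

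Among the root genes higher in A was cycling DOF factor 2 (Gh_D11G0738), a repressor in the flowering pathway in Arabidopsis, at 10.8 ± 0.977 FPKM in A, against 2.99 ± 0.295 in B (a difference of 1.56 on the log2 scale, adjusted p = 2.98e-06, limma). Pseudo-response regulator 5 (Gh_A11G0142), a clock protein that represses morning genes in Arabidopsis, had 11.4 ± 1.07 FPKM in A and 3.93 ± 0.144 in B (1.33, adjusted p = 4.91e-06, limma). A further copy of it, Gh_Sca013634G01, was lower in the root of A, at 5.31 ± 0.586 FPKM, than in D, at 19.5 ± 2.64 (-1.70, adjusted p = 6.18e-09, limma).

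In leaf, 2 genes of pseudo-response regulator 7, another repressor of the clock, were lower in A than in each paternal inbred. Gh_D09G1513 had 6.25 ± 1.01 FPKM in A, against 16 ± 1.27 in B, 16.8 ± 1.44 in C and 24.0 ± 1.76 in D (log2 differences -1.24, -1.30 and -1.79). Gh_A09G1502 had 13.8 ± 2.65 FPKM in A, against 31.0 ± 1.57 in B, 34.2 ± 0.964 in C and 49.1 ± 1.01 in D (SD, n = 3). The pathway members Gh_D11G1068 and Gh_A11G0926, described as Homeodomain-like proteins, were higher in A than in each paternal inbred. Gh_A11G0926 had 65.7 ± 2.49 FPKM in A, against 30.5 ± 3.24 in B, 29.0 ± 1.02 in C and 27.6 ± 1.97 in D (1.09, 1.15 and 1.23, adjusted p = 1.55e-05, 8.87e-06 and 2.52e-06, limma). The part that harvest time has in these levels, or in that of Gh_Sca005165G01, was not tested.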

How the data were processed

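RNA of root and leaf of 7 genotypes was sequenced as paired-end mRNA libraries on an Illumina Hiseq. The authors used HISAT2 for alignment, with TM-1 as the genome, and StringTie for transcript assembly and FPKM. The sources used here do not give their versions. The table deposited by the authors gives FPKM per gene and library, without counts or coordinates. Low values were only partly stepped (9.18% of 1928 pairs of low values at the commonest ratio), so whole reads were not recovered and no counting interval is given.

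Groups followed the labels. limma 3.58.1 in R 4.3.3 was fitted with a mean-variance trend to log2(FPKM + 1), with 1 mean per genotype, on the 21 libraries of a tissue, or on all 42 for root minus leaf, after keeping genes with at least 1 FPKM in 3 libraries (59282 in root, 54835 in leaf, 69603 in both). Benjamini-Hochberg adjustment covered all genes kept. The main fit of root minus leaf did not pair the root and leaf of a plant. An alternative fit took equal replicate numbers of a genotype as the same plant, which the labels do not state. A pseudocount of 1 understates changes of low genes. Replicates are called biological by the study, and p-values measure the spread between them. In simulated data with normal noise, changes were planted only in well-expressed genes with a limited spread between replicates. Of those changed by a log2 value of 1.5, 98.5% were called in H minus M in root. Smaller changes and lower or more variable genes were not covered.

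The gene and the gene lists were chosen with earlier results of these data known. The named genes were those sharing the description, the 10 with the highest correlation, the 5 highest present in A alone per tissue, and, of the pathway genes called with the largest difference (at most 5 per direction), a few. Other pseudocounts, filters, normalization, blocks and the omission of single libraries were tried. The wider list of glycine-rich RNA-binding genes held no gene beyond the 2 other genes of the same description.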

Additional observations from a re-analysis of the deposited data

Results flagged for a closer look

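The level of Gh_Sca005165G01 in the hybrids lay on opposite sides of the mean of the parents in the 2 tissues, in every library of each hybrid. The ratios of a tissue share the A libraries, and the lowest leaf ratios of L, at 1.07 and 1.01, were close to the parental mean. The libraries were not rescaled, and FPKM totals in leaf were higher in the hybrids than in A, so the side of these lowest ratios depends on scaling. In root the mean ratio was 0.650 in H, 0.799 in M and 0.821 in L, and in leaf it was 1.32 in H, 1.40 in M and 1.16 in L. The difference between tissues was not tested, since the parental libraries chose the gene, and on the log2(FPKM + 1) scale the root values turn positive.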

How the results depend on the processing

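No call of Gh_Sca005165G01 changed under quantile normalization, a pseudocount of 0.1, no filter, the fit on hybrid libraries alone or the omission of a library. The root difference of hybrids from their parents was reversed on the log2(FPKM + 1) scale, at 0.76 (H), 0.98 (M) and 1.03 (L), and root minus leaf in B, near 0, became -0.0714 after quantile normalization (adjusted p = 0.656, limma). L minus A in leaf for Gh_A12G0257 likewise became -0.0743. Omitting 1 library moved M minus L in root between -0.145 and 0.0135 and H minus M in leaf between -0.138 and 0.0326. For Gh_A12G0257 the ranges were -0.73 to 0.18 for A minus B in root, -0.208 to 0.0592 for L minus A in root and -0.058 to 0.11 in leaf. For Gh_D13G2550 they were -0.14 to 0.87 for H minus B and -0.45 to 0.34 for L minus D in root. Its calls in root, L minus A (1.37 to 2.34) and A minus D (-2.40 to -1.43), were not kept throughout. Of the 2 other genes, 2 root calls became 0 without the filter and 0 to 2 without 1 library, and 7 leaf calls 6 to 8. With a pseudocount of 0.1 the pathway genes called in leaf were 8 rather than 4 for A minus B and 15 rather than 7 for A minus C. Without 1 library the 14 of A minus C in root became 9 (without C replicate 2) to 13. The genes present in A alone numbered 76 in root and 48 in leaf with limits of 2 and 0.5 FPKM, and 9 in root with limits of 10 and 2. Same-numbered samples did not deviate together (median correlation 7.15e-05 in root, -0.00756 in leaf and 0.0094 between root and leaf). With the replicate number as a block, H minus M in root was -0.27 (adjusted p = 0.293, limma), and the block changed no call of the gene. Reads per gene are unknown, which limits what can be said of levels under 0.4 FPKM. Of the 10 genes most like it, 8 were shared with Spearman correlation, 8 with 14 group means and 7 with a pseudocount of 0.1. The settings for root minus leaf of the 2 other genes and for single pathway genes were chosen after seeing the data; no named pathway gene lost its call. The causes of these changes were not tested.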
